A study of Drosophila melanogaster with 6 samples.

Results

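The 10 genes described here encode sensory cation channels, 9 of the transient receptor potential (TRP) family and the stretch-gated channel *Piezo*. They were taken by symbol from the count table of enteroendocrine cells (EEs) of the adult *Drosophila* midgut. All 10 symbols were found among the 17558 genes of the table, and 8 of them had enough counts to be tested. The genes are *TrpA1*, *pain*, *pyx* and *wtrw* of the TRPA branch, *iav* of the TRPV branch, *trp* and *trpl* of the TRPC branch, *Trpm*, *Trpml* and *Piezo*. Each is annotated as protein-coding.

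TRP channels open to chemicals, temperature, touch or lipid messengers and let calcium and other cations into the cell. The name comes from the fly eye, where *trp* and *trpl* form the light-activated channels behind phospholipase C. In the midgut, *TrpA1* is known from EEs, which release hormones when reactive chemicals open it. *Piezo* opens when the membrane is stretched, and in the midgut it is known from the precursors of EEs.

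GFP+ cells were sorted from the midguts of adult females, and their RNA was sequenced in 3 control and 3 *pros*-depleted samples. Control flies carried ProsV1-Gal4ts>UAS-GFP, and *pros*-depleted flies carried *pros-RNAi* in addition, so that both groups share the driver, the temperature-sensitive repressor and GFP. Flies were 5 to 7 days old when all were moved to 29 °C for 7 days, which starts Gal4. The labels write the driver as ProsV1-Gal4ts, ProsV1-Gal5ts and ProsV1-Gal6ts in *pros*-depleted replicates 1, 2 and 3, and the methods name prosV1-Gal4 throughout. Each sample pooled cells of many guts, and the driver marks cells that express *pros*, so all EE subtypes are mixed in a sample. The methods call the replicates independent.

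The libraries held 27183747 to 40766059 counts. Levels are given in CPM, a gene's counts scaled to the size of its library after TMM. A floor of 3 counts was set by choice and came to 0.0755 to 0.110 CPM. Such a floor covers counting error only. The targeted gene, *pros*, had 500, 548 and 836 CPM in control and 162, 138 and 162 CPM in *pros*-depleted samples, which did not overlap (log2 fold change -2.03, standard error (SE) 0.237). The 11 EE markers found in the table summed to between 97464 and 107401 CPM in control samples and 7353 to 11667 CPM in *pros*-depleted samples, and 10 of them were called lower. Of the 9 progenitor and the 10 enterocyte markers, 5 and 5 were called higher. The summed level of the progenitor markers was 305 to 427 CPM in control and 759 to 1054 CPM in *pros*-depleted samples, and that of the enterocyte markers 511 to 1288 CPM and 2091 to 4753 CPM. None of these markers was at 0 in all samples. Of 10 visceral muscle markers, 1 was called lower and 1 higher. Of 4 hemocyte markers tested, 0 were called by edgeR, with 3 lower at an unadjusted p under 0.05 and 2 lower in DESeq2, and their list summed to 14.3 to 35.8 CPM in control and 7.91 to 13.0 CPM in *pros*-depleted samples.

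The channel genes lie on 5 chromosome arms of the BDGP6 assembly. *TrpA1* (FBgn0035934) spans 8894404 to 8904790 on the minus strand of 3L, with 4457 bp of exons in 19 blocks. The newer Ensembl annotation of this assembly extends its start to 8905200 and gives it 5 transcripts with proteins of 1195 to 1232 residues, which gene counts cannot tell apart. *Piezo* (FBgn0264953) spans 8163073 to 8190137 on the plus strand of 2L, with 11090 bp of exons, 11 transcripts and proteins of 2533 to 2973 residues. The other 9 genes have the same span in both annotations. Exons of 3 channel genes overlap a gene on the opposite strand, and whether the counting used strand is not given in the sources used here. These are *pain*, *pyx* and *Trpm*.

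In control EEs, *TrpA1* was the channel gene with the highest level per exon length. Its level was 97.0, 147 and 116 RPKM (CPM per kb of exon) in the 3 control samples. *Trpml*, the channel of lysosomes, was next with 45.6, 44.6 and 30.1 RPKM, and the 2 genes did not overlap. *Trpm*, a channel for magnesium, zinc and other divalent cations, followed at 4.54 ± 0.526 RPKM (SD, n = 3). *pain*, which is needed for the response of larvae to noxious heat and touch, had 2.41 ± 1.37 RPKM (SD, n = 3) and overlapped *Piezo* at 1.81 ± 0.734 RPKM (SD, n = 3). *Piezo* in turn overlapped *trpl* at 1.03 ± 0.138 RPKM (SD, n = 3). The remaining genes had mean levels below 1 RPKM, from 0.335 for *wtrw* through 0.0958 for *iav* and 0.0142 for *pyx* to 0.00462 for *trp*. The RNA was amplified, and how evenly reads covered the transcripts was not tested, so the order per length holds for this unit only. Among all 10374 genes tested, the control level of *TrpA1* ranked 643 by RPKM.

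**Figure D1:**
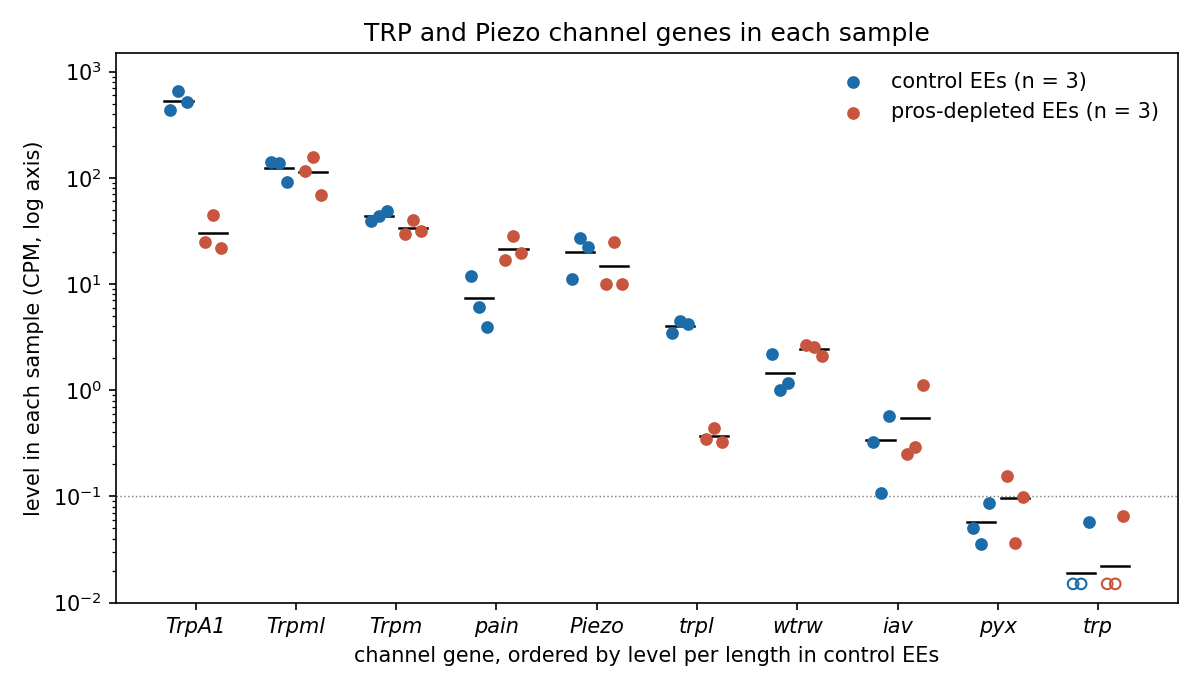
Level of each channel gene in each sample, in CPM on a log axis, with control samples in blue, *pros*-depleted samples in red and black lines for the arithmetic mean of 3 samples. Open circles at the bottom are samples with 0 counts, and the dotted line at 0.1 CPM lies near the level of 3 counts. For *TrpA1* and *trpl* all red points lie under all blue points, and for *pain* they lie above them.

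The comparison of *pros*-depleted with control EEs asks which of these channel genes differed in level between the 2 groups of sorted cells. The 10374 genes that reached 10 counts in 3 or more samples went into edgeR's quasi-likelihood test. Calls were made where the Benjamini-Hochberg adjusted p was under 0.01 and the log2 fold change lay beyond 0.5 in either direction. Of the 8 channel genes tested, *TrpA1* and *trpl* were called lower, and 7.96% of all genes tested were called lower. None was called higher, against 4.73% of all genes tested. *pain* alone was higher at an unadjusted p under 0.05, and DESeq2 called it higher. *trp* and *pyx* were too low to be tested. The groups did not overlap in *TrpA1*, *trpl* and *pain*, where 22.5% of genes tested did not overlap with the *pros*-depleted samples below and 20.4% with them above. So 3 of the 8 channel genes tested did not overlap, no larger a share than over all genes. *Trpm* and *wtrw* did not overlap either when control replicate 1 was left out, which made 5 of 8 genes where 51.9% of all genes tested did not overlap in either direction. Without *pros*-depleted replicate 2 it was *Trpm* and *Piezo*, also 5 of 8, where the share of all genes was 55.8%. The median log2 fold change of the 8 genes tested was -0.25, and that of all genes tested was 0.02. With 3 samples against 3, a two-sided exact permutation test of a single gene cannot go below p = 0.1, the value it gave for each of the 3 genes that did not overlap.

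**Figure D2:**
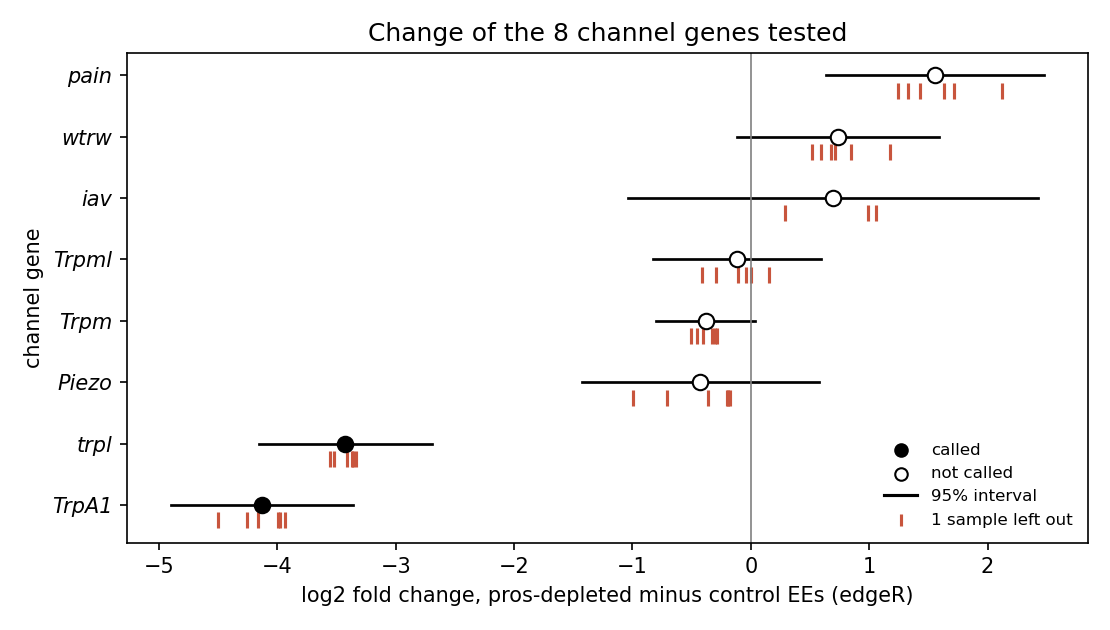
Log2 fold change of the 8 channel genes tested, *pros*-depleted minus control EEs, from edgeR with 95% intervals as black lines. Filled circles are called genes, open circles genes that were not called, and red ticks the values with 1 sample left out. The intervals of *TrpA1* and *trpl* lie at or below -2.70, and those of the other genes but *pain* include 0.

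*TrpA1*, the channel for irritants and warmth, showed the largest fall of the channel genes tested. Control EEs gave 17179, 18341 and 17949 counts, and *pros*-depleted EEs gave 794, 1212 and 673. Scaled, these were 432, 655 and 516 CPM against 24.9, 44.4 and 22.1 CPM. The lowest control sample was far above the highest *pros*-depleted sample, replicate 2. Its level was 17.6-fold lower, a log2 fold change of -4.13 (SE 0.334, edgeR's adjusted p = 0.000158). Counted from the lowest log2 fold change, *TrpA1* stood at rank 109 of the 10374 genes tested. It was called in all 6 fits that left out 1 sample, with log2 fold changes between -4.50 and -3.94. Its exons overlap no other gene in the table. By level per length, its rank among all genes tested went from 643 in control to 4634 in *pros*-depleted EEs. Fewer cells that express a gene and less RNA of it per cell cannot be told apart in sorted bulk samples. Among 8 neuron markers, which EEs share in part, 2 of 7 tested were called lower, where 7.96% of all genes tested were. The 8 markers summed to 743 to 823 CPM in control and 437 to 511 CPM in *pros*-depleted samples. The part of such changes in the fall of *TrpA1* was not tested.

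Of the TRPC channels of phototransduction, *trpl* fell and *trp* was near the limit of detection. *trpl* (FBgn0005614, chromosome 2R, 9753697 to 9765518) had 136, 125 and 145 counts in control and 11, 12 and 10 counts in *pros*-depleted samples, or 3.42, 4.46 and 4.17 CPM against 0.345, 0.440 and 0.328 CPM. The coefficients of variation were 13.3% in control and 16.2% in *pros*-depleted samples, and the groups were far apart. At 10 to 12 counts per sample, the spread of the *pros*-depleted samples says little about how alike they were. Its level was 10.8-fold lower, a log2 fold change of -3.43 (SE 0.317, edgeR's adjusted p = 0.000265). The call held in all 6 fits without 1 sample, with values from -3.55 to -3.34. *trp* (FBgn0003861, chromosome 3R, 29914521 to 29920289), the channel that carries most of the light response in the eye, had 0, 0 and 2 counts in control and 0, 0 and 2 counts in *pros*-depleted samples. It stayed at or under the floor of 3 counts in every library, and no fold change is given. Of 8 photoreceptor markers, 4 could be tested and 0 were called by edgeR or DESeq2, with 2 lower at an unadjusted p under 0.05 in edgeR. They summed to 3.25 to 4.49 CPM in control and 2.27 to 3.97 CPM in *pros*-depleted samples. The opsin gene *ninaE* had 4 to 16 counts per sample and its chaperone *ninaA* had 0 in each.

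*pain* (FBgn0060296, chromosome 2R, 24921505 to 24928275) was the channel gene that was higher in *pros*-depleted EEs without overlap, short of the threshold used. It had 12.0, 6.07 and 3.94 CPM in the control samples and 16.9, 28.3 and 19.6 CPM in the *pros*-depleted samples. Control replicate 1 was the highest control sample and still lay below all *pros*-depleted samples. The log2 fold change of 1.56 (SE 0.400, 95% interval 0.64 to 2.48) had an adjusted p = 0.0242 in edgeR, which was not called, and 0.000668 to 0.0907 over the 12 other fits. DESeq2 called it. At an adjusted p under 0.05 edgeR called it too, with 11.4% of all genes tested then called higher and 14.6% lower. Without control replicate 1 it was also called, at a log2 fold change of 2.12 (edgeR's adjusted p = 0.00485).

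The last 173 bp of the exons of *pain*, from 24921505 to 24921677, are also the end of *NaCP60E*, a sodium channel gene that runs towards it on the opposite strand. *NaCP60E* was called higher, from 34.7, 23.1 and 23.2 CPM to 61.3, 112 and 77.8 CPM (log2 fold change 1.63, SE 0.276). In the *pros*-depleted samples both genes were highest in replicate 2 and lowest in replicate 1, and in the control samples both were highest in replicate 1. Control replicates 2 and 3 differed in *pain*, at 6.07 and 3.94 CPM, but hardly in *NaCP60E*, at 23.1 and 23.2 CPM. The shared stretch is 5.69% of the exon length of *pain*, and how many of its counts came from there was not tested. The called progenitor and enterocyte markers, 5 of 9 and 5 of 10, were higher in the same group. Their part in the level of *pain* was not tested.

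The other TRPA channels were low in both groups. *wtrw* (FBgn0260005, chromosome 3R, 7891331 to 7901147), known for the sensing of moist air, had 2.21, 0.999 and 1.18 CPM in control and 2.69, 2.56 and 2.10 CPM in *pros*-depleted samples. Control replicate 1 lay above *pros*-depleted replicate 3, so the groups overlapped. Its log2 fold change was 0.73 (SE 0.372), and its 95% interval ran from -0.12 to 1.59. *pyx* (FBgn0035113, chromosome 3L, 217932 to 223069), a channel that protects flies from paralysis at high temperature, had 2, 1 and 3 counts in control and 5, 1 and 3 counts in *pros*-depleted samples. No difference was detectable at this depth. Its exons overlap 2 genes on the opposite strand, *Kaz1-ORFB* by 127 bp and *CG13877* by 477 bp.

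*iav* (FBgn0086693, chromosome X, 6813978 to 6818156), the TRPV channel of hearing neurons, had few counts and a wide spread. There were 13, 3 and 20 counts in control and 8, 8 and 34 counts in *pros*-depleted samples. The groups overlapped, and *pros*-depleted replicate 3 was the highest sample. *iav* had a log2 fold change of 0.69 (SE 0.752, 95% interval -1.04 to 2.42). Its partner in these neurons, *nan*, had 1 to 2 counts in control and 6 to 11 counts in *pros*-depleted samples and was not tested.

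*Trpm* and *Trpml*, known for divalent cation balance and for lysosomes, kept levels in *pros*-depleted EEs that overlapped those of control EEs. *Trpm* (FBgn0265194, chromosome 2R, 15262808 to 15309368) had 39.1, 43.6 and 49.3 CPM in control and 29.6, 39.9 and 31.9 CPM in *pros*-depleted samples. Only *pros*-depleted replicate 2 reached into the control range. The log2 fold change of -0.38 (SE 0.182, 95% interval -0.80 to 0.04) had an adjusted p = 0.162 in edgeR. Its exons share 66 bp with *ItgalphaPS4* on the opposite strand. *Trpml* (FBgn0262516, chromosome 3L, 19714418 to 19718328) had 140, 137 and 92.3 CPM in control and 114.9, 157 and 69.0 CPM in *pros*-depleted samples. Its highest and its lowest sample were both *pros*-depleted. The log2 fold change was -0.12 (SE 0.309), and the 95% interval of -0.82 to 0.59 does not reach the fall of *TrpA1* or *trpl*.

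*Piezo* also overlapped between the groups, with a wide spread in each. It had 439, 754 and 771 counts in control and 319, 674 and 305 counts in *pros*-depleted samples, or 11.0, 26.9 and 22.2 CPM against 9.99, 24.7 and 10.01 CPM. Control replicate 1 lay with the low *pros*-depleted samples, and *pros*-depleted replicate 2 with the high control samples. The coefficients of variation were 40.6% and 56.9%, where the medians of all genes tested were 18.02% and 21.5%. Its log2 fold change was -0.43 (SE 0.435, edgeR's adjusted p = 0.506), and the 95% interval of -1.43 to 0.57 covers a fall as well as a rise. With 1 sample left out the value ran from -0.99 without *pros*-depleted replicate 2 (edgeR's adjusted p = 0.0922) to -0.17 without control replicate 2 (edgeR's adjusted p = 0.845), and it was called in none of these 6 fits.

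With *TrpA1* reduced, the make-up of the channel gene signal differed between the groups. Of the summed RPKM of the 10 genes, *TrpA1* made up 63.4%, 72.8% and 74.3% in control and 10.5%, 12.9% and 12.7% in *pros*-depleted samples. *Trpml* made up 29.8%, 22.1% and 19.3% in control and 70.2%, 65.9% and 57.6% in *pros*-depleted samples. The share of *pain* went from 0.832% to 2.57% in control samples to between 10.4% and 16.5%. Per length, *TrpA1* exceeded *pain* 24.6-, 73.6- and 89.4-fold in the control samples, and the ratio was 1.00, 1.07 and 0.768 in the *pros*-depleted samples. Shares add up to a fixed sum, so the larger share of *Trpml* goes with the level of *TrpA1*, and its own level overlapped between the groups. Counted without *TrpA1*, the other 9 genes summed to 174 to 219 CPM in control and 134 to 253 CPM in *pros*-depleted samples, and these ranges overlap.

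**Figure D3:**
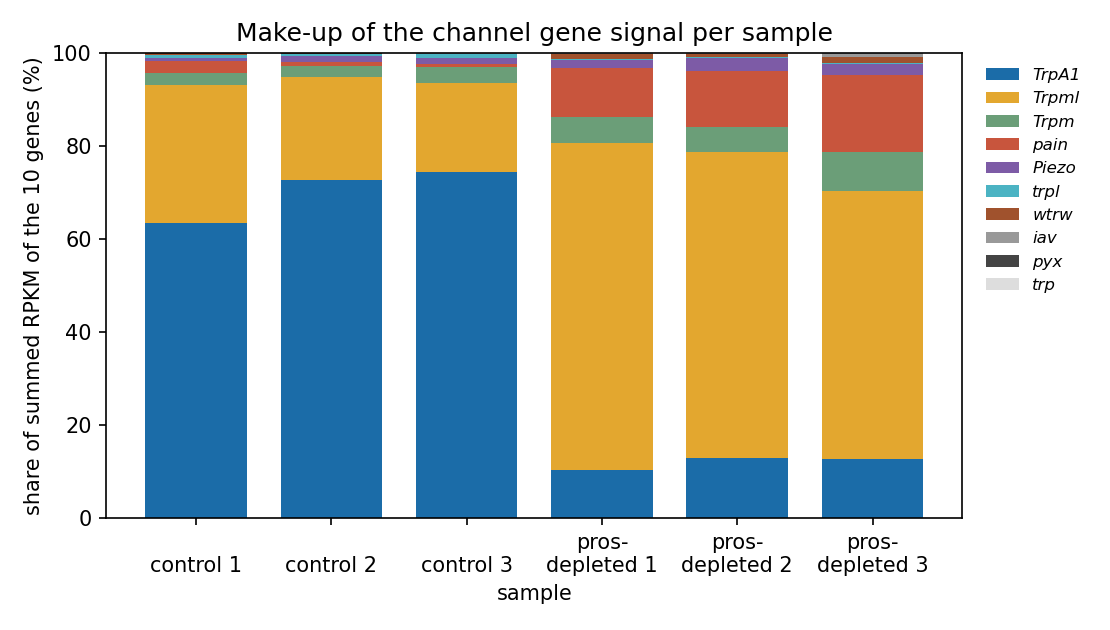
Share of each channel gene in the summed RPKM of the 10 genes, in percent, with 1 bar per sample. *TrpA1* makes up 63.4% to 74.3% of the control bars and 10.5% to 12.9% of the *pros*-depleted bars, where *Trpml* makes up 57.6% to 70.2%.

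The genes whose log2 CPM followed *TrpA1* most closely over the 6 samples, by Pearson's r, were *CG13454* (0.9997), *CG14516* (0.9994) and the tyramine receptor gene *TyrRII* (0.9990). Pearson's r takes no account of the size of a change, and their log2 fold changes were -1.43, -4.45 and -3.86. With 2 groups so far apart such values are common, and 657 genes had an r over 0.95, of which 70 were over 0.99. *TyrRII* went from 70.0, 102 and 74.0 CPM to 4.73, 7.55 and 4.66 CPM, so that it was highest in control replicate 2 and *pros*-depleted replicate 2, as was *TrpA1*. The genes closest to *Piezo* were *spg* (0.99), which encodes an exchange factor of the DOCK family, *hng2* (0.9855) and the metal transporter gene *Mvl* (0.9841). Here 21 genes had an r over 0.95, of which 1 was over 0.99. *Mvl* had 57.5, 92.8 and 89.6 CPM in control and 61.5, 93.0 and 58.5 CPM in *pros*-depleted samples, the same high and low libraries as *Piezo*. All points share the 6 libraries, and these values are descriptions.

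Other channels of touch and of the TRP family were mostly too low to be tested. Of 6 further TRP genes, 2 were tested and 0 were called by edgeR. One was lower at an unadjusted p under 0.05 and by DESeq2, *Pkd2*, a channel of the polycystin branch. It had 58, 66 and 43 counts in control and 22, 7 and 3 counts in *pros*-depleted samples, a log2 fold change of -2.25 (SE 0.639, edgeR's adjusted p = 0.0351). The other gene tested, *nompC*, a channel of touch and hearing neurons, had 12, 7 and 26 counts in control and 71, 14 and 26 counts in *pros*-depleted samples. The groups overlapped, and its log2 fold change was 1.46 (SE 0.660, edgeR's adjusted p = 0.143). *brv2*, of the polycystin branch, had 4, 5 and 3 counts in control and 0 in each *pros*-depleted sample. *brv3* had 27, 9 and 16 counts in control and 0, 5 and 8 counts in *pros*-depleted samples. In CPM, some genes too low to be tested were higher in each *pros*-depleted sample than in any control sample. Of genes tested, 20.4% did the same. These low genes were *nan*, under the floor of 3 counts in control, and the mechanosensory genes *rpk* and *stum*. *stum* had 6, 6 and 7 counts in control and 16, 9 and 39 counts in *pros*-depleted samples. *rpk* had 6, 1 and 5 counts against 5, 5 and 17, so its counts overlapped. Its highest control and lowest *pros*-depleted CPM were close, at 0.151 and 0.157. Of 6 further mechanosensory channel genes in the table, 2 were tested, and 0 were called by edgeR, by DESeq2 or at an unadjusted p under 0.05. One of these, *CG11210*, the fly TMEM63 gene, came to -0.02 on the log2 scale (SE 0.192).

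Phospholipase C signalling opens *trpl* in the eye and *TrpA1* in some neurons. Genes listed for this signalling and for phototransduction, not all of which open a channel, were called in both directions. Of these 18 genes, 9 were tested, 3 were called lower and 1 higher, where 7.96% and 4.73% of all genes tested were called. The median log2 fold change of these 9 genes was -0.14, and that of all genes tested 0.02. *Plc21C*, a phospholipase C, had 1092, 1277 and 1519 counts in control and 340, 316 and 402 counts in *pros*-depleted samples (log2 fold change -1.72, SE 0.229). *Ggamma30A*, a G protein subunit, had -1.82 (SE 0.268), and *Pkc53E*, a protein kinase C, had -2.02 (SE 0.413). *norpA*, the phospholipase C of the eye, lay just short of the threshold, at -1.34 on the log2 scale (SE 0.289, edgeR's adjusted p = 0.0118). *laza*, a lipid phosphatase, rose from 107, 47 and 85 counts to 312, 356 and 277 counts (log2 fold change 2.22, SE 0.266). The eye genes *inaC*, *inaD*, *ninaC*, *Arr1* and *Arr2* had at most 9 counts in any sample.

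Genes for calcium entry, stores and sensors were also called both ways, 2 lower and 2 higher of 13 tested. These are small counts beside the 7.96% and 4.73% of all genes tested, and nothing particular to the list is read from them. Its median log2 fold change was -0.07. *RyR*, the ryanodine receptor, fell from 130, 107 and 146 counts to 34, 45 and 24 counts (log2 fold change -1.69, SE 0.342). *CanB*, a calcineurin subunit, fell by 1.15 on the log2 scale (SE 0.162). *olf186-F*, which encodes the store-operated channel Orai, rose from 588, 511 and 509 counts to 1122, 1164 and 1032 counts (log2 fold change 1.23, SE 0.177). *Itp-r83A*, the inositol trisphosphate receptor, rose by 1.05 on the log2 scale (SE 0.206). Over the 4 lists of related genes, with 2, 2, 9 and 13 genes tested, 8 genes were called. Of all genes tested, 7.96% were called lower and 4.73% higher. The number in the lists fell to 3 without *pros*-depleted replicate 1, to 4 without control replicate 3 and to 5 without control replicate 2. Calls over all genes fell as well, from 826 lower and 491 higher to 481 and 249 without *pros*-depleted replicate 1.

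**Figure D4:**
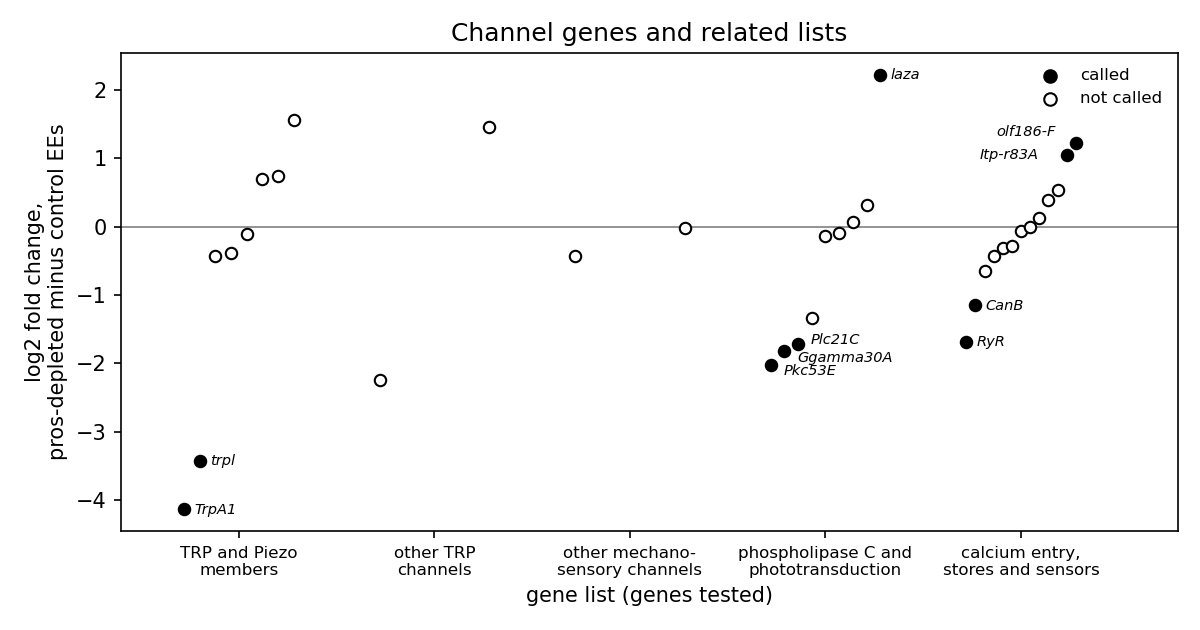
Log2 fold change, *pros*-depleted minus control EEs, of each gene tested among the channel genes and in 4 lists of related genes. Filled circles with names are called genes and open circles genes that were not called. *TrpA1* at -4.13 and *trpl* at -3.43 are the lowest points, and the called genes of the other lists lie between -2.02 and 2.22.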

How the data were processed

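Per the methods, 50 bp single-end reads of amplified RNA were mapped to BDGP6, and the authors deposited raw counts per gene from featureCounts 1.6.3, with each gene's exon length in the same table. The aligner and the treatment of strand and of reads with several positions are not given in the sources used here. Samples were grouped by their titles. Counts were tested with edgeR 4.0.16 (R 4.3.3) after TMM scaling, as quasi-likelihood fits of the 10374 genes that reached 10 counts in 3 or more samples, and p-values were adjusted over all of them. The thresholds are those of the study's methods for DESeq2. Standard errors come from each log2 fold change and its F statistic, and 95% intervals use the test's degrees of freedom. RPKM is TMM-scaled CPM per kb of exon. Log2 CPM used a prior count of 2. The alternatives were DESeq2 1.42.0, other scalings, filters and thresholds, a replicate block and leaving out each sample. The scripts were first tested on simulated data.

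The channel genes and the related lists were chosen with earlier results of these data known. The genes named are all 10 channel genes, called genes of the lists, the 3 genes most like *TrpA1* and *Piezo*, and *pros*. Genes named outside this rule (*NaCP60E* and the other overlapping genes, *nan*, *Pkd2*, *nompC*, *brv2*, *brv3*, *rpk*, *stum*, *CG11210*, *norpA* and the uncalled eye genes) were picked after their values were seen. *Tmc*, *MCU*, *Orcokinin* and *apolpp* were not matched by symbol and are not analysed here. Sequences were not used here.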

Additional observations from a re-analysis of the deposited data

How the results depend on the processing

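*TrpA1* and *trpl* were called lower under each of the 14 alternatives, with log2 fold changes of -4.50 to -3.94 and -3.55 to -3.32, so that 2 channel genes were called lower throughout. The number called higher was 1 in place of 0 with DESeq2 and at an adjusted p under 0.05, and 0 to 1 when 1 sample was left out, the gene being *pain* each time. *pain* had a log2 fold change of 1.25 to 2.12 over the alternatives. That of *Trpml*, -0.41 to 0.16 without 1 sample, turned to 0.000878 without control replicate 1 and to 0.155 without *pros*-depleted replicate 3. *iav* could not be tested in every fit. Channel genes that did not overlap numbered 5 in place of 3 with library size alone, and 3 to 5 of 8 without 1 sample. Of all genes tested, 43.9% did not overlap with that scaling, and 47.5% to 55.8% without 1 sample. Library size alone moved the median log2 fold change of all genes from 0.02 to 0.14. Genes over 1 RPKM in control EEs numbered 5 to 6 without 1 control sample. The genes called in the related lists numbered 3 to 6 without 1 sample. Over all genes, 826 were called lower and 491 higher. These counts were 1267 and 976 with DESeq2, 1519 and 1184 at an adjusted p under 0.05, and 413 to 596 and 188 to 317 without 1 sample, which leaves fewer samples. With the replicate number as a block, 643 genes were called lower and 346 higher, and the same 2 channel genes were called. The numbers share no stated origin, and deviations of same-numbered samples correlated at -0.164, 0.196 and 0.0995, so they were not taken as pairs. Control replicates 1 and 3 did not correlate best with their own numbers. Why the counts differed between DESeq2 and edgeR was not tested. Depth limits *trp*, *pyx* and *iav*, with 0 to 34 counts per sample.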
